A study of Mus musculus with 6 samples.

Results

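Il22 and the genes of the aryl hydrocarbon receptor (AHR) axis were followed in mouse T cells polarized towards the Th17 state with pemafibrate or vehicle. The set held 8 genes of the 24421 in the deposited RPKM table (reads per gene, scaled by gene length and by library size): Il22, the receptor gene Ahr, its repressor Ahrr, its partner Arnt and the target genes Cyp1a1, Cyp1b1, Tiparp and Nqo1. They were matched by symbol, and all 8 were in the table. The set was selected on the RPKM differences between these pemafibrate and vehicle libraries, together with known roles in the AHR axis, so every difference between the groups given here for these 8 genes is a description, without a test of its own.

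The cells were naive CD4 T cells from wild-type mouse spleen, kept as primary cultures in IMDM with 10% fetal bovine serum under Th17 conditions. The pemafibrate group (3 libraries, titled with the numbers 3, 7 and 8) received 10 nM of this selective modulator of the nuclear receptor PPARalpha until day 2, and the vehicle group (3 libraries, numbers 3, 4 and 7) received vehicle. All cultures then had 2 more days in medium with serum. Whether each library stands for its own animal or culture is not in the labels, and the spread between libraries may therefore be technical.

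AHR is a ligand-activated transcription factor that waits in the cytosol with chaperones, enters the nucleus when it binds tryptophan metabolites, dietary indoles or pollutants, and pairs there with ARNT to bind DNA. It induces xenobiotic-metabolizing enzymes together with its own brakes, the repressor AHRR and the ADP-ribosyltransferase TIPARP. Among helper T cells AHR is abundant in Th17 cells, where it is known to be needed for full Il22 expression. IL-22 is secreted by T cells and innate lymphoid cells and acts on epithelia, which carry its receptor.

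The libraries, at 14935351 to 18322467 implied reads, carried the T cell markers of their labels. All 8 CD4 T cell markers were above 0.5 RPKM, with sums of 1752 to 1817 RPKM in pemafibrate and 1754 to 1825 RPKM in vehicle libraries. All 8 Th17 markers were above 0.5 RPKM too, with sums of 1413 to 1710 RPKM in pemafibrate and 1899 to 2101 RPKM in vehicle libraries. Most of that sum was the cytokine gene Il17f (mean 1286 RPKM in pemafibrate and 1621 RPKM in vehicle). The Th17 markers did not all go one way. Of the 8, limma called Il23r and Il21 lower (Il21 at a mean of 63.1 RPKM in pemafibrate and 93.0 RPKM in vehicle), and Ccr6, a chemokine receptor gene, higher (mean 33.3 RPKM in pemafibrate and 23.0 RPKM in vehicle, adjusted p = 0.0104). Sums of the CD8 T cell, B cell, myeloid and erythroid marker lists were at most 10.4 RPKM in any library, and their ranges overlapped between the groups. Of the erythroid markers 5 of 6 were at 0 in all libraries. The natural killer and innate lymphoid list summed to 102.9 to 106.2 RPKM in pemafibrate and 127.7 to 133.8 RPKM in vehicle libraries, nearly all of it Id2, a gene that T cells express too (mean 100.7 RPKM in pemafibrate and 125.7 RPKM in vehicle). Klre1, a natural killer cell receptor gene in that list, was also lower without overlap (mean 2.70 RPKM in pemafibrate and 3.90 RPKM in vehicle). Klrk1 (0.813 and 0.691 RPKM) and Kit (0.728 and 0.756 RPKM, in the same order) overlapped. The part of the Th17 sum, of Id2 and of Klre1 in the values below was not tested. Of 7 gamma delta T cell markers only Sox13 and Blk were used here, with sums of 0.474 to 0.652 RPKM in pemafibrate and 0.531 to 0.575 RPKM in vehicle libraries.

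Il22 was higher in pemafibrate-treated cells, while its regulator Ahr and 3 AHR target genes, Cyp1b1, Tiparp and Ahrr, were lower. Arnt and the classic target Cyp1a1 lay at similar levels with overlapping groups, and Nqo1 was near the lower limit of what was tested. In bulk RNA, fewer cells that express a gene and less RNA per cell cannot be told apart. The groups did not overlap for 5 of the 8 genes, 1 higher and 4 lower in pemafibrate, where 15.0% of the 11360 tested genes had groups that did not overlap, 7.67% higher and 7.31% lower. With limma and an adjusted p under 0.05, 1 of the 8 genes passed (Il22), where 0.352% of all tested genes passed. Of the 8 genes 4 had an adjusted p under 0.05 in the authors' deposited table (Il22, Ahr, Cyp1b1 and Tiparp), where 1.73% of the genes above 0 did. Since the genes were chosen with this comparison known, nothing is read from these counts.

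**Figure D1:**
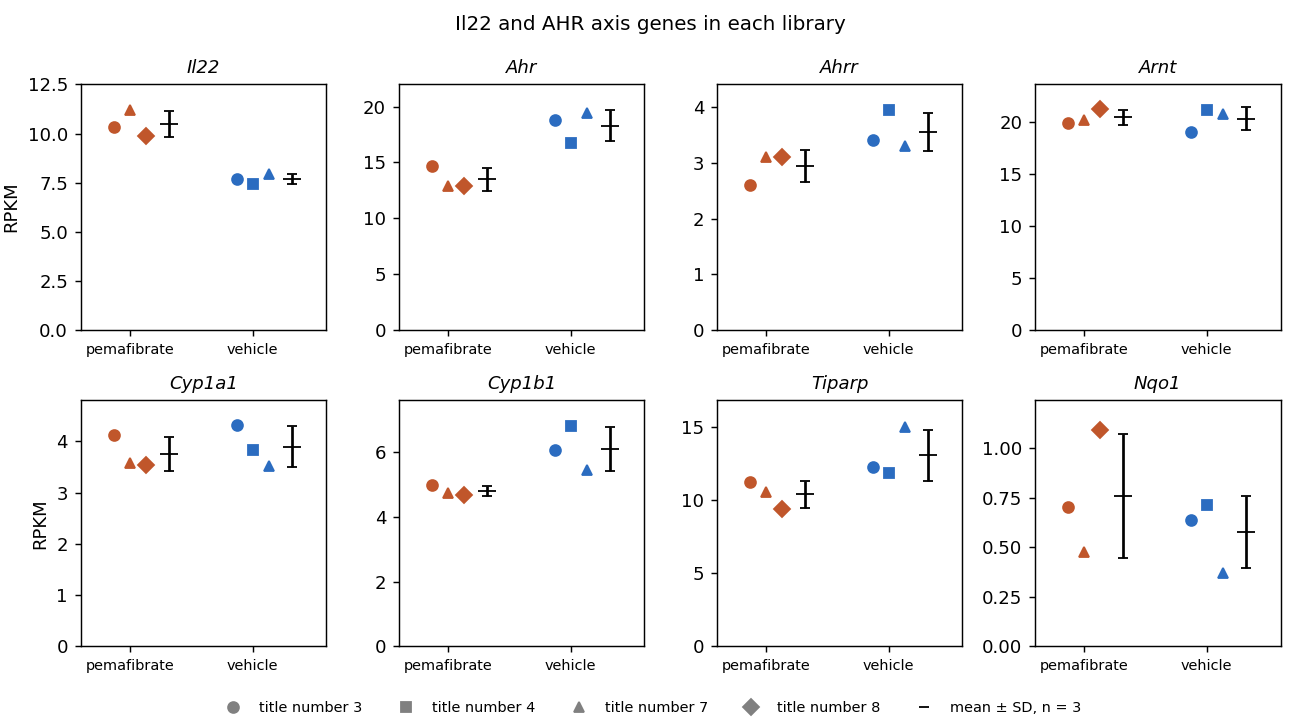
Level of each of the 8 genes in RPKM (vertical axes, each from 0), with pemafibrate libraries on the left and vehicle libraries on the right of each panel. Each symbol is 1 library, its shape gives the number in the title, and the bar is the mean ± SD (n = 3). For Il22 the pemafibrate points lie above the vehicle points, for Ahr, Ahrr, Cyp1b1 and Tiparp they lie below, and for Arnt, Cyp1a1 and Nqo1 they overlap.

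Il22 (chromosome 10, 118204584 to 118210047, GRCm38) measured 10.3, 11.2 and 9.90 RPKM in pemafibrate 3, 7 and 8, against 7.67, 7.43 and 7.92 RPKM in vehicle 3, 4 and 7. The lowest pemafibrate library was above the highest vehicle library. The means were 10.5 ± 0.668 RPKM in pemafibrate and 7.68 ± 0.249 RPKM in vehicle (SD, n = 3 each), a ratio of 1.37. On the log2(RPKM + 0.5) scale the difference was 0.42 ± 0.06 (SE), larger in size than that of 97.4% of tested genes. These values rest on 206, 182 and 190 reads in pemafibrate and 151, 138 and 149 reads in vehicle libraries. At such numbers counting alone gives a spread of 7.20% in pemafibrate and 8.28% in vehicle, and the observed spread was 6.37% and 3.24%, so the vehicle libraries lay closer together than counting error predicts. With voom on the reads, which weights genes by their read numbers, the log2 difference was 0.44 with a larger SE of 0.10. The Il22 call by limma was lost when any single library was left out (adjusted p from 0.0889 to 0.171), while the log2 difference stayed between 0.38 and 0.46.

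The mouse reference genome, which is that of C57BL/6J, carries a near copy of Il22, Iltifb, on the same chromosome (118289629 to 118295038, on the opposite strand), and reads of the pair can be hard to place. Their coding sequences, compared here from GENCODE transcripts, are both 540 bases long and differ at 9 bases (98.3% identity). Of the 441 stretches of 100 bases within the coding sequence 122 (27.7%) are identical in the pair. The stretch of 60 bases within 1 exon that holds most differences, 3 of the 9, is shown for each gene as an example of where reads can be told apart. The differing bases are in capitals, on the coding strand, for Il22 at chr10:118205570-118205629 and for Iltifb at chr10:118294351-118294410 (GRCm38).
Il22: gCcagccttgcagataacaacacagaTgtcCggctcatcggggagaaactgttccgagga
Iltifb: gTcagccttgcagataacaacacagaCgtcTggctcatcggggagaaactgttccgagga
Iltifb had 22, 9 and 20 reads in pemafibrate 3, 7 and 8 and 16, 8 and 7 reads in vehicle 3, 4 and 7, between 4.49% and 9.65% of the reads given to the pair in any library. Its levels, 1.08, 0.543 and 1.02 RPKM in pemafibrate and 0.796, 0.422 and 0.365 RPKM in vehicle libraries, overlapped. The sources used here do not give how reads that match both genes were counted, and the pair was also summed. Scaled to library size, the sum was 12.4, 12.8 and 11.9 CPM in pemafibrate, against 9.23, 8.54 and 9.02 CPM in vehicle libraries, and the groups did not overlap.

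Ahr (chromosome 12, 35497979 to 35534989), the receptor, went the other way from Il22. It measured 14.7, 12.9 and 12.9 RPKM in pemafibrate 3, 7 and 8, against 18.8, 16.7 and 19.4 RPKM in vehicle 3, 4 and 7. The highest pemafibrate library was below the lowest vehicle library. The log2 difference was -0.43 ± 0.07 (SE), a ratio of means of 0.737. Ahr had 1057 to 1480 reads in pemafibrate and 1572 to 1867 reads in vehicle libraries, so counting gave a spread of only 2.82% and 2.38%, against an observed 7.84% in pemafibrate and 7.59% in vehicle. Its replicates thus differed by more than counting error, unlike those of Il22. Leaving out single libraries gave log2 differences of -0.49 to -0.39.

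Arnt (chromosome 3, 95434367 to 95497240) encodes the partner that AHR needs to bind DNA and that hypoxia-inducible factors use as well. It measured 19.9, 20.2 and 21.3 RPKM in pemafibrate and 19.0, 21.1 and 20.7 RPKM in vehicle libraries, with overlap. Its log2 difference was 0.0097 ± 0.053 (SE), with a 95% interval of -0.11 to 0.13. Arnt was the most abundant of the 8 genes, and Ahr was below it in every library. The ratio of Ahr to Arnt was 0.740, 0.639 and 0.605 in pemafibrate and 0.986, 0.794 and 0.935 in vehicle libraries, without overlap.

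Ahrr (chromosome 13, 74211118 to 74292331) encodes a repressor that AHR induces and that competes with it for ARNT. It measured 2.61, 3.11 and 3.10 RPKM in pemafibrate and 3.41, 3.96 and 3.31 RPKM in vehicle libraries. The groups did not overlap, by a narrow gap between pemafibrate 7 and vehicle 7. The log2 difference was -0.24 ± 0.10 (SE).

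Tiparp (chromosome 3, 65528447 to 65555518), whose enzyme ADP-ribosylates AHR and limits its activity, measured 11.2, 10.6 and 9.35 RPKM in pemafibrate and 12.3, 11.8 and 15.0 RPKM in vehicle libraries. Vehicle 7 stood above the other 2 vehicle libraries, and the gap between the groups was narrow. The log2 difference was -0.31 ± 0.10 (SE), and -0.21 without vehicle 7.

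Cyp1b1 (chromosome 17, 79706940 to 79715061) encodes a cytochrome P450 that oxidizes AHR ligands and steroids. It measured 4.97, 4.71 and 4.67 RPKM in pemafibrate and 6.04, 6.79 and 5.43 RPKM in vehicle libraries. The pemafibrate libraries lay close together below all vehicle libraries. The log2 difference was -0.31 ± 0.08 (SE).

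Cyp1a1 (chromosome 9, 57687928 to 57703824), the most widely used readout of AHR activity, did not share the lower levels of Cyp1b1, Tiparp and Ahrr. It measured 4.13, 3.58 and 3.53 RPKM in pemafibrate and 4.32, 3.84 and 3.53 RPKM in vehicle libraries, which overlapped almost wholly. The log2 difference was -0.05 ± 0.09 (SE), and its 95% interval, -0.27 to 0.17, includes the difference found for Ahrr. Cyp1a1 had 149 to 218 reads per library.

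Nqo1 (chromosome 8, 107388225 to 107403205), a quinone reductase gene that AHR and the oxidative stress factor NRF2 both induce, was scarce. It had 20, 11 and 30 reads in pemafibrate and 18, 19 and 10 reads in vehicle libraries, or 0.373 to 1.09 RPKM, and its groups overlapped. The log2 difference of 0.21 ± 0.22 (SE) had a 95% interval of -0.30 to 0.72, which includes both 0 and the difference found for Il22. It was 0.02 without pemafibrate 8, 0.38 without pemafibrate 7 and 0.06 without vehicle 7. The spread of Nqo1 was 41.4% in pemafibrate and 31.3% in vehicle, beside 22.2% and 25.3% from counting alone, in the same order.

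**Figure D2:**
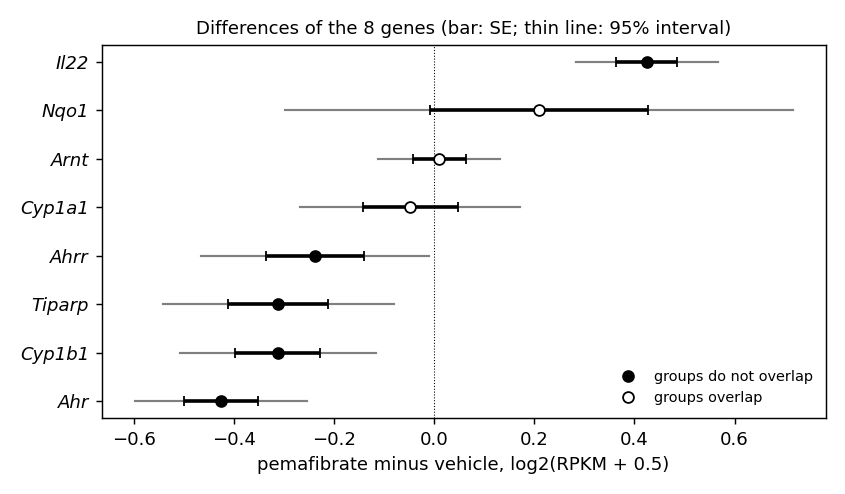
Difference of each gene between pemafibrate and vehicle on the log2(RPKM + 0.5) scale (horizontal axis, positive for higher in pemafibrate), with genes in rows. Points are fitted differences, thick bars the SE and thin lines the 95% interval, and filled points mark genes whose groups did not overlap. Il22 stands at 0.42, Ahr at -0.43, and Cyp1b1, Tiparp and Ahrr between -0.31 and -0.24.

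The start regions of the lower target genes are shown because AHR and ARNT bind a short DNA element whose core is GCGTG. RefSeq windows of 300 bases (250 before to 50 after a start, GRCm38.p6) were found for 7 of the 8 genes, all but Ahr. The core was present, on either strand, in 5 of the 7 windows, those of Ahrr, Arnt, Cyp1a1, Cyp1b1 and Tiparp, and in 32.4% of all 32851 windows of that length. Ahrr held 3 copies, 107, 82 and 27 bases before the start, and 3.91% of all windows hold 3 or more. The longer form TNGCGTG, which contains the core, was found only in Ahrr among the 7 windows (5.07% of all windows). TGACNNNGC, the core of the element that NRF2 binds, was found only in Arnt, with 2 copies (12.4% of all windows). The windows of Il22 and Nqo1 held none of these letters. The RefSeq genes of Il22 and Cyp1a1 also have a start further upstream than the one in the window, and the best known AHR elements of Cyp1a1 lie further upstream too. The 250 bases before the start are printed on the gene's strand with the core in capitals, where CACGC is the core on the other strand, for Ahrr (chr13:74292332-74292581, minus strand), Cyp1b1 (chr17:79715062-79715311, minus strand), Tiparp (chr3:65528197-65528446, plus strand) and Cyp1a1 (chr9:57697363-57697612, plus strand).
Ahrr: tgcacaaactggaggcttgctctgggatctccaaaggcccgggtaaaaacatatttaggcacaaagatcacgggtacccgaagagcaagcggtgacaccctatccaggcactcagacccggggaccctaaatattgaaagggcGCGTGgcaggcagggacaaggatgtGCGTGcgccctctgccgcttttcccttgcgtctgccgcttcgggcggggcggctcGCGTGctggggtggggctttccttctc
Cyp1b1: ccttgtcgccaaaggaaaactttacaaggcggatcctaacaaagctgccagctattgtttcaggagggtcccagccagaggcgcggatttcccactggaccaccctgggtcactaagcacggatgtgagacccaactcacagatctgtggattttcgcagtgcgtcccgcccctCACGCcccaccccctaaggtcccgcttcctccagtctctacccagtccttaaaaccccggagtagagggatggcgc
Tiparp: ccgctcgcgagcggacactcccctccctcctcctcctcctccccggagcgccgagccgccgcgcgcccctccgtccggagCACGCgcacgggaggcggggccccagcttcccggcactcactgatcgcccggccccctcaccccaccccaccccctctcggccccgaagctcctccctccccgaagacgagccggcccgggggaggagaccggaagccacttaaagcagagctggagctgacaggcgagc
Cyp1a1: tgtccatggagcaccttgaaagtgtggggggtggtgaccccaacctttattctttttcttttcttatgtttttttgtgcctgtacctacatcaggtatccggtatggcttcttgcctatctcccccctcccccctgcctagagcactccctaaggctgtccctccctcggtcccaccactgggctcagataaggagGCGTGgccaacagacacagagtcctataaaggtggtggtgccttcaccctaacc
The core is thus present both in the target genes that were lower and in Cyp1a1, whose groups overlapped. A match of these letters is a description and not a measured binding site.

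Ratios within a library do not depend on how the library was scaled. Those given here are between genes chosen or named with their values known. They combine differences of the single genes and are no further result. Il22 over Ahr was 0.704, 0.870 and 0.770 in pemafibrate and 0.409, 0.444 and 0.409 in vehicle libraries, a log2 difference of 0.89. Il22 over Il17a, the signature Th17 cytokine gene, was 0.0738, 0.0880 and 0.0943 in pemafibrate and 0.0405, 0.0410 and 0.0355 in vehicle libraries, a log2 difference of 1.13. In both ratios every pemafibrate library was above every vehicle library. Il17a itself averaged 124 ± 17.8 RPKM in pemafibrate and 198 ± 22.3 RPKM in vehicle libraries (SD, n = 3 each).

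Set against the receptor, 3 of the target genes overlapped between the groups and Cyp1a1 did not. Ahr was itself lower in pemafibrate and was chosen with this comparison known. A gene at a similar level in both groups is therefore higher over Ahr in pemafibrate. These ratios restate the differences given above and are no separate result. Cyp1b1 over Ahr (0.356 ± 0.0153 in pemafibrate and 0.336 ± 0.0638 in vehicle; SD, n = 3 each), Tiparp over Ahr (0.769 ± 0.0468 and 0.711 ± 0.0600) and Ahrr over Ahr (0.220 ± 0.0370 and 0.196 ± 0.0352, in the same order) all had overlapping ranges. Cyp1a1 over Ahr was 0.281, 0.278 and 0.275 in pemafibrate and 0.230, 0.229 and 0.182 in vehicle libraries, without overlap. Ahrr was below Cyp1a1 in all 3 pemafibrate libraries (0.631 to 0.877 of its level) and in vehicle 3 and 7, but above it in vehicle 4 (1.03).

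**Figure D3:**
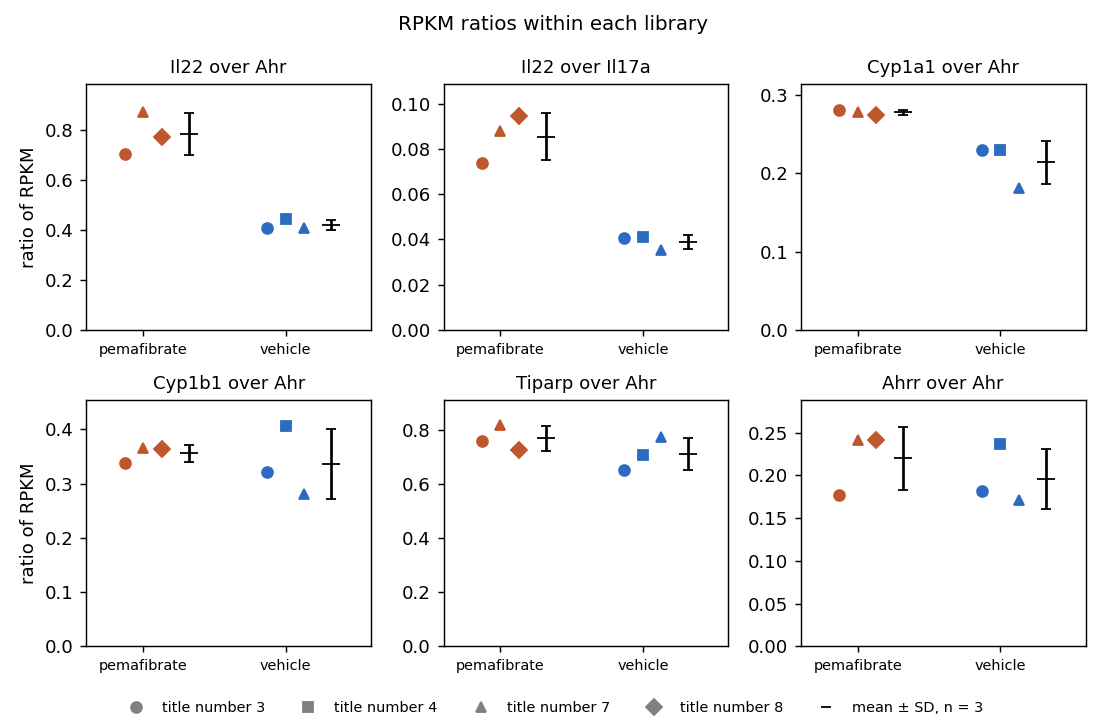
Ratio of 2 genes' RPKM within each library (vertical axes, from 0), pemafibrate on the left and vehicle on the right; symbols are libraries and bars the mean ± SD (n = 3). Il22 over Ahr, Il22 over Il17a and Cyp1a1 over Ahr are higher in all pemafibrate libraries, while Cyp1b1, Tiparp and Ahrr over Ahr overlap between the groups.

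By mean level per length over the 6 libraries the order was Arnt (20.4 RPKM), Ahr (15.9), Tiparp (11.7), Il22 (9.08), Cyp1b1 (5.44), Cyp1a1 (3.82), Ahrr (3.25) and Nqo1 (0.667). Arnt was above 62.8% of the tested genes and Nqo1 above 2.61%. Il22 and Tiparp were neighbours whose order was not the same in all libraries. Il22 was 0.924 of the Tiparp level in pemafibrate 3 and 1.06 of it in pemafibrate 7 and 8. In vehicle libraries it was 0.529 to 0.628 of the Tiparp level. Tiparp, Ahr and Il22 had their highest vehicle value in vehicle 7, where Cyp1b1, Ahrr, Cyp1a1 and Nqo1 had their lowest.

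Across the 6 libraries, and so mostly along the difference between the groups, the genes whose log2 level followed Il22 most closely were Celf2 (Pearson r = 0.989), Usp5 (0.984), Fam126a (0.984), Ccr8 (0.984) and Uba3 (0.983), among 7949 genes averaging 5 RPKM or more. Those closest to Ahr were Ascc3 (r = 0.992), Zak (0.991), Btbd19 (0.990), Nedd4 (0.988) and Gja5 (0.982). With 6 points sharing libraries and treatment, r reached 0.9 for 136 genes with Il22 and for 128 genes with Ahr, and these values are descriptions. Among the likest genes Ccr8, a chemokine receptor gene, had 87.1 RPKM in pemafibrate and 59.6 RPKM in vehicle, and Nedd4, a ubiquitin ligase gene, had 18.1 and 25.8 RPKM in the same order.

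The other genes of the AHR and IL-22 pathways, in 7 lists, held 77 tested genes, of which limma called 0 higher and 2 lower at an adjusted p under 0.05, against 0.132% and 0.220% of all tested genes. The median log2 difference of these 77 genes was 0.0024, beside 0.0052 over all tested genes. Voom called 2 higher and 6 lower, where 1.23% of the genes it tested were called. At an unadjusted p under 0.05, limma had 7 higher and 17 lower, where 9.67% of all tested genes passed, 4.76% higher and 4.90% lower. The unadjusted counts given below for single lists are to be read against the same shares.

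Maf and Il23r were the 2 that limma called lower. Maf encodes a transcription factor that promotes Il10 and represses Il22, and measured 65.8, 59.8 and 58.3 RPKM in pemafibrate and 80.7, 79.2 and 76.4 RPKM in vehicle libraries (log2 difference -0.36 ± 0.05, limma adjusted p = 0.0412). Il23r encodes the receptor chain for interleukin 23, a strong inducer of Il22, and measured 3.66, 3.90 and 3.91 RPKM in pemafibrate and 6.11, 6.26 and 5.46 RPKM in vehicle libraries (log2 difference -0.57 ± 0.07, limma adjusted p = 0.0362). Leaving out single libraries kept the call of Maf only without pemafibrate 3 (adjusted p = 0.0272) and that of Il23r only without vehicle 7 (0.0454). Across the 15 alternatives the lowest and highest adjusted p were 0.0018 and 0.230 for Maf, and 0.0054 and 0.330 for Il23r.

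Regulators of Il22 transcription were spread to both sides, with 20 tested, 0 called higher and 1 lower, and a median of -0.03. At an unadjusted p under 0.05 limma had 3 higher and 7 lower, and voom called 1 higher and 2 lower. Irf4, Hif1a and Rbpj were the most abundant of them. Hif1a, a dimer partner of ARNT, measured 233 ± 5.30 RPKM in pemafibrate and 269 ± 4.75 RPKM in vehicle (SD, n = 3 each; log2 difference -0.21, limma adjusted p = 0.0743, voom adjusted p = 0.0099). Notch2, a receptor of a pathway known to promote Il22, measured 16.6 ± 0.0841 RPKM in pemafibrate and 13.7 ± 0.573 RPKM in vehicle (log2 difference 0.27, limma adjusted p = 0.0721, voom adjusted p = 0.0058). Irf4 and Rbpj had log2 differences of -0.03 and -0.04 (limma adjusted p = 0.868 and 0.830).

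Among 12 receptors for cytokines that induce Il22 limma called Il23r alone, with a median of -0.00094. Il1r1, the receptor for interleukin 1, measured 3.31 ± 0.366 RPKM in pemafibrate and 4.996 ± 0.282 RPKM in vehicle (log2 difference -0.53, limma adjusted p = 0.0717, voom adjusted p = 0.0043). Icos, a costimulatory receptor, measured 164 ± 3.83 RPKM in pemafibrate and 139 ± 4.27 RPKM in vehicle (log2 difference 0.24, limma adjusted p = 0.0600, voom adjusted p = 0.0073). Il21r and Il12rb1, a chain shared by the interleukin 12 and 23 receptors, had log2 differences of 0.01 and -0.15 (limma adjusted p = 0.963 and 0.712). That of Il12rb1 was -0.06 without pemafibrate 3 and -0.24 without pemafibrate 8.

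The IL-22 receptors, decoy and IL-10 family list had 6 tested genes, 0 called by limma (1 higher and 2 lower at an unadjusted p under 0.05, 1 lower by voom, Il10), a median of 0.19, and 4 genes at 0 in every library. Il10rb, the chain that the IL-22 and IL-10 receptors share, measured 10.9 ± 0.557 RPKM in pemafibrate and 9.16 ± 0.118 RPKM in vehicle (log2 difference 0.24, limma adjusted p = 0.148). Il10 measured 27.5 ± 4.66 RPKM in pemafibrate and 40.7 ± 3.05 RPKM in vehicle (log2 difference -0.57, limma adjusted p = 0.105, voom adjusted p = 0.0093). Il24, another cytokine of the family, measured 38.0 ± 4.59 RPKM in pemafibrate and 45.7 ± 5.88 RPKM in vehicle, with overlap (log2 difference -0.26 ± 0.11, SE). Without pemafibrate 8 that difference was -0.17, and without vehicle 7 it was -0.16.

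The chaperones and partners of AHR had small differences. Of 12 tested genes limma called 0 (1 higher and 2 lower at an unadjusted p under 0.05, 1 lower by voom, Hif1a), with a median of 0.03. The HSP90 genes Hsp90aa1 and Hsp90ab1, which hold AHR in the cytosol, had log2 differences of 0.0091 ± 0.058 and 0.04 ± 0.05 (SE). In the ligand supply list 5 genes were tested and limma called 0 (0 at an unadjusted p under 0.05, 0 by voom). Slc7a5 and Slc3a2, which together form a transporter for kynurenine and large amino acids, had log2 differences of 0.07 ± 0.04 and 0.01 ± 0.04, and Slc36a4, an amino acid transporter gene, of 0.08 ± 0.09.

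Other AHR target genes were mostly below 0 without any that passed. Of 20 listed genes 9 were tested, 2 above and 7 below 0 with a median of -0.13, and limma called 0 (0 higher and 1 lower at an unadjusted p under 0.05, 0 by voom). Ikzf3, the gene of the lymphoid factor Aiolos, measured 32.5 ± 3.17 RPKM in pemafibrate and 37.4 ± 3.23 RPKM in vehicle (limma adjusted p = 0.510). Gpr15, a receptor for T cell homing to the colon, measured 21.9 ± 2.36 RPKM in pemafibrate and 24.5 ± 0.679 RPKM in vehicle (limma adjusted p = 0.539). For all 9 genes the groups overlapped.

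The NRF2 battery, which shares Nqo1 with AHR, had 15 tested genes, of which limma called 0 (0 higher and 2 lower at an unadjusted p under 0.05, 1 lower by voom), with a median of -0.02. The voom call was Fth1, a ferritin subunit gene, with 668 ± 25.1 RPKM in pemafibrate and 790 ± 30.4 RPKM in vehicle (log2 difference -0.24, limma adjusted p = 0.110, voom adjusted p = 0.0093). Ftl1, the other ferritin subunit gene, had a log2 difference of -0.02 ± 0.05 and Prdx1, a peroxiredoxin gene, of 0.08 ± 0.06.

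**Figure D4:**
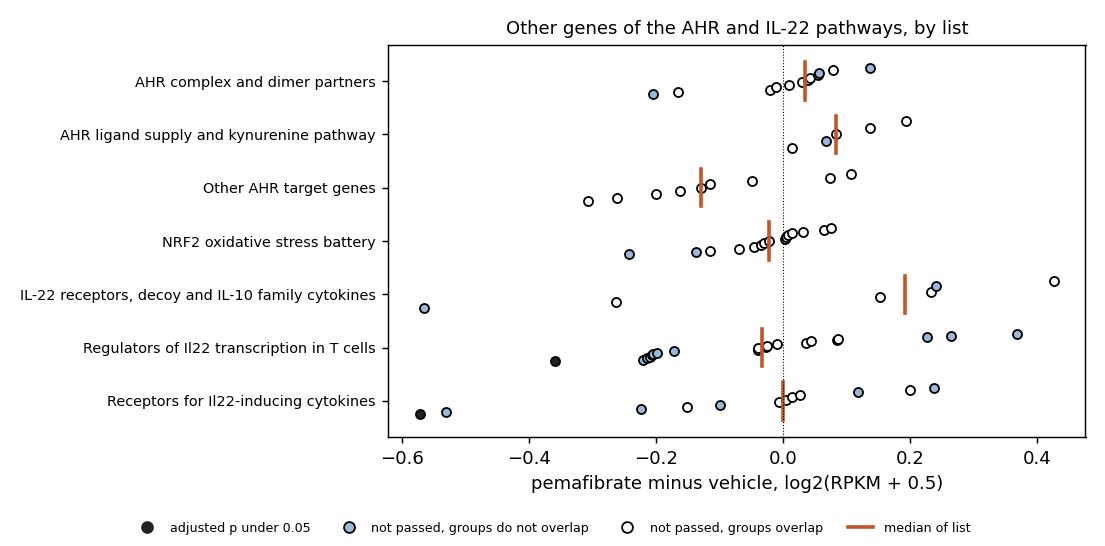
Log2 difference between pemafibrate and vehicle (horizontal axis, positive for higher in pemafibrate) of each tested gene in 7 pathway lists, 1 list per row. Black points passed limma at an adjusted p under 0.05, blue points did not pass but had groups without overlap, white points overlapped, and the orange bar is the list's median. Maf (-0.36) and Il23r (-0.57) are the only black points, and the list of other AHR targets has its median at -0.13.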

How the data were processed

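Messenger RNA was sequenced in 3 pemafibrate and 3 vehicle libraries, grouped by the treatment label. The submitters' processing notes name HISAT2 2.1.0 and featureCounts 1.4.6, next to Trimmomatic 0.35, bcl2fastq and edgeR, and the builds GRCm38 and mm10. The library kit was stranded, per the labels' protocols; annotation and strand setting of the counting are not given in the sources used here. The authors deposited RPKM per gene, along with a log2 fold change and p-values, raw and adjusted, from their comparison; the authors' deposited rank, an other kind of column, was not used.

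The RPKM steps gave whole reads for all 16822 genes above 0 (relative tolerance 1e-06) taken as the lowest whole numbers in those ratios. Genes averaging 0.5 RPKM or more (11360) were tested on log2(RPKM + 0.5), a scale that understates changes of low genes, with limma 3.58.1 in R 4.3.3 (trended prior variance, Benjamini-Hochberg adjustment over all tested genes, threshold 0.05). The procedure was tested on simulated data. Genes, lists and tests were chosen with earlier results of these data known. Named genes are the 8 members, Iltifb, called list genes, the 3 most abundant genes per list and the 5 genes likest Il22 and Ahr; 1 gene that this rule takes is not reported here. Genes called by voom alone, Il17a, Il17f, Il21, Ccr6, Id2, Klre1, Klrk1, Kit, Tgfbr1 and Tgfbr2 were named after their values were seen. Alternatives were pseudocounts of 0.1 and 1, no filter or 2 RPKM, quantile normalization, median ratio scaling, array weights, the title number as a block, voom on the reads (mean of at least 10) and leaving out each library. Positions come from RefSeq GRCm38.p6. Python 3.11.15 and matplotlib 3.10.9 drew the figures.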

Additional observations from a re-analysis of the deposited data

How the results depend on the processing

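The direction of Il22, Ahr, Ahrr, Cyp1b1 and Tiparp was the same in all 15 alternatives, with log2 differences of 0.38 to 0.47 for Il22, -0.49 to -0.39 for Ahr, -0.28 to -0.17 for Ahrr, -0.39 to -0.22 for Cyp1b1 and -0.38 to -0.21 for Tiparp. Arnt and Cyp1a1 stayed near 0 (-0.03 to 0.04 and -0.12 to 0.02), and Nqo1, which the filter of 2 RPKM leaves out, gave 0.02 to 0.38 in the other 14. Of all tested genes limma called 40, against 7 with no filter, 140 with array weights, 146 with voom and 0 to 25 without 1 library (0 without pemafibrate 7, with 771 at an unadjusted p under 0.05). Of the 8 members it called 1, against 0 with no filter, 2 with array weights (Il22 and Ahr) and 0 without any 1 library, with 4 or 5 at an unadjusted p under 0.05 in each of these fits (5 in the reported fit, where 9.67% of all tested genes passed); voom called 1 as well, but Ahr in place of Il22. Of the 77 pathway genes it called 2, against 0 with no filter (23 at an unadjusted p under 0.05), 8 with array weights, 8 with voom and 0 to 2 without 1 library (18 to 22 unadjusted). With the title number as a replicate block, which only 3 and 7 have in both groups, limma called 0 genes, 0 members and 0 pathway genes (653, 3 and 16 at an unadjusted p under 0.05), and the Il22 log2 difference was 0.44. The labels do not say what the title number marks, so the numbers were not taken as pairs. Deviations of same-numbered samples had correlations of 0.03 for number 3 and -0.0083 for number 7. Those of different-numbered samples ran from -0.22 to 0.20. With 3 libraries per group these values cannot exclude pairing. The cause of these differences in counts was not tested. Nqo1 and Iltifb had at most 30 reads in any library; read numbers and their spread cover counting error only.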
